A study of Mus musculus with 30 samples.

Results

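RAD21, a subunit of the cohesin ring, had peaks at 32720 autosomal sites in at least 2 of the 4 wild-type (WT) lists of this series, and 472 of them lay at gene promoters with no CTCF peak nearby. A site was a group of WT RAD21 summits linked within 150 bp. It was kept when its median summit was covered in at least 2 WT lists, when none of the 14 CTCF lists had a peak within 150 bp, and when the start of a protein-coding RefSeq gene lay within 1 kb. The sites were thus chosen by the WT RAD21 peaks and by all CTCF peaks, whose values are given as descriptions. The WT values also enter the matching and the rank fit described below, and nothing is read from the rank fit about these sites. Of the 1345 sites without CTCF, 748 counted as away from promoters, chromosome 18 included, for which no gene starts were available. The promoter sites with a CTCF peak numbered 3155.

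CTCF and RAD21 were profiled by ChIPmentation, a chromatin immunoprecipitation with Tn5 tagmentation, in E10.5 mouse trunks (B6CBAF1). The 30 lists came from WT littermates and 6 homozygous alleles with CTCF binding sites (CBS) of the Hoxd cluster mutated in cis. There were 4 WT lists for RAD21 and 3 for CTCF. The alleles Del(CBS1), with 3 lists for either protein, and Del(CBS2), with 1, carry a single mutated CBS. For the cumulative alleles RAD21 had 2 lists each: Del(CBS1-2), which for CTCF had 1, and then Del(CBS1-3), Del(CBS1-4) and the allele with all 5 sites mutated, Del(CBS1-5), which for CTCF had 2 each. Parents were trans-heterozygous and embryos were dissociated individually, so lists were treated as separate embryos. A trunk is a mixed tissue, and a weaker peak in fewer cells cannot be told apart from a weaker peak in all cells.

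Cohesin extrudes chromatin loops and is halted by CTCF, so most of its peaks in mammalian cells lie on CTCF sites. Cohesin is also found at active promoters, where loading factors and stalled polymerases are known to hold it. Genes of transfer RNAs (tRNAs) are read by RNA polymerase III from promoters inside the gene, the A and B boxes, to which the factor TFIIIC binds, and in yeast such genes are known places of cohesin loading and condensin binding.

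The sequences upstream of 5 gene starts are shown because their RAD21 sites recur in the results. The site at Ndufs7 lies at a tRNA gene, and those at Pnpt1, Mrpl3, Cox10 and Gtf3c3 were each covered in at least 12 of the 16 RAD21 lists. Each sequence runs from 250 bp to 1 bp before the RefSeq gene start (mm10), 5′ to 3′ on the gene's strand. Capitals mark matches on either strand to any of 10 motifs: the GC box (GGGCGG), the CCAAT box, the ETS motif (CCGGAAG), the E-box (CACGTG), the TATA motif (TATAAA), and, by name, the motifs of NRF1, YY1, CRE, the CTCF core and the tRNA B box. None of these strings contains another.
Ndufs7, chr10:80249199-80249448, + strand: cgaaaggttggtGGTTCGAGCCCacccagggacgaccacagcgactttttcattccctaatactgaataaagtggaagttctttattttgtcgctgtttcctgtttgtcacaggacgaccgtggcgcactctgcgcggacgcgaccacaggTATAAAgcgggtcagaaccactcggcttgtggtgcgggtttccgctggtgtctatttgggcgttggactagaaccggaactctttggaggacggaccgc
Pnpt1, chr11:29130494-29130743, + strand: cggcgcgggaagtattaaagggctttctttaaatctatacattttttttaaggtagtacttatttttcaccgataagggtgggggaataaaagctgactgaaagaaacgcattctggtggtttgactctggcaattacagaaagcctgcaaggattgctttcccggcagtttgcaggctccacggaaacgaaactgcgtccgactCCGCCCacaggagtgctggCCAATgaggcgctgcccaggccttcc
Mrpl3, chr9:105053018-105053267, + strand: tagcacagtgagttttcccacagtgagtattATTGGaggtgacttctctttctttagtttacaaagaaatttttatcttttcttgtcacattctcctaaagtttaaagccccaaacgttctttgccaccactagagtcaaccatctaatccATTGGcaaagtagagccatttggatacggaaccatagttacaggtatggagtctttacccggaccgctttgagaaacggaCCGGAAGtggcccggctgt
Cox10, chr11:64079473-64079722, - strand: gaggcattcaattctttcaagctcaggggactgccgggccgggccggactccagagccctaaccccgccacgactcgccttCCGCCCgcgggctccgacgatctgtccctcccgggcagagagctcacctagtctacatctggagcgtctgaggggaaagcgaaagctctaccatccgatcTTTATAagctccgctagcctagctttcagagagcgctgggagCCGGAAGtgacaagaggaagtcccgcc
Gtf3c3, chr1:54439027-54439276, - strand: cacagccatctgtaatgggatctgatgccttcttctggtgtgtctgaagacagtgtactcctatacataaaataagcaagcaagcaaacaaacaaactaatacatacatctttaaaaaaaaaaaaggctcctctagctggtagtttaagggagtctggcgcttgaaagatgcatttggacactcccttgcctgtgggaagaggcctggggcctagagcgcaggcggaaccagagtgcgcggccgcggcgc

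The Ndufs7 sequence begins inside the asparagine tRNA gene n-TNgtt7, which RefSeq places at 80249159 to 80249232 on chromosome 10. Its B box match starts 238 bp before the Ndufs7 start, within that tRNA gene. Among the 20084 gene starts searched, 29 (0.144%) had a B box match in the 300 bp from 250 bp before to 50 bp after the start. The Pnpt1 sequence had a GC box and a CCAAT box, Mrpl3 2 CCAAT boxes and an ETS match, and Cox10 an ETS match, a GC box and a TATA match. Gtf3c3 had no match, and none of the 5 sequences had a CTCF core match.

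The RAD21 lists did not form 1 uniform set, and the difference fell within genotypes. Lists held 16676 to 48102 peaks, and read depth was unknown because the files hold no read counts. A RAD21 peak covered 214, 258 and 262 of the 391 autosomal RefSeq tRNA genes in WT replicates 1 to 3 but 18 in WT replicate 4. Among the mutant lists the count was 191 in Del(CBS1) replicate 1 against 20 and 15 in replicates 2 and 3, and 268 in Del(CBS1-3) replicate 1 against 12 in replicate 2. Both Del(CBS1-2) lists covered tRNA genes (263 and 262), as did the Del(CBS2) list (181), whereas Del(CBS1-4) (19 and 30) and Del(CBS1-5) (6 and 6) had few. The CTCF lists covered 18 to 49 tRNA genes. The labels name no batch, so whether these lists differ in preparation was not tested, and results are given with and without the sites at tRNA genes.

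The strongest RAD21 promoter sites without CTCF in WT replicates 1 to 3 lay at tRNA genes. The sites were ranked by their mean fold percentile in the WT lists, the percentile being a peak's place within its own list by the fold enrichment that the authors' peak caller gave. In this mean a WT list without a peak over the site counted as 0, so it also reflects the number of WT lists. The first 16 all lay within 200 bp of a tRNA gene, and 17 sites near 16 protein-coding genes did so in all. This order rests on WT replicates 1 to 3: in WT replicate 4, 14 of the 17 had no peak, and the 3 with one had a median percentile of 5.54, against 13.7 for the other CTCF-free promoter sites covered there. Within 200 bp of a tRNA gene were 3.60% of the CTCF-free promoter sites, 18.2% of the CTCF-free sites away from promoters (136 of 748), 0.349% of the promoter sites with CTCF and 0.773% of all RAD21 sites. tRNA genes were looked up after these values had been seen. All 17 lay upstream of the protein-coding gene, from -252 to -923 bp relative to its start.

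The 16 genes beside these tRNA genes have varied roles. Prmt5, which encodes an arginine methyltransferase, has its RAD21 site at 54517722 on chromosome 14, over the arginine tRNA gene n-TRacg6. Fold enrichment there was 9.27, 15.7, 15.8 and 4.76 in WT replicates 1 to 4. It was 7.74 in Del(CBS1) replicate 1, 17.4 and 15.0 in Del(CBS1-2), 18.4 in Del(CBS1-3) replicate 1 and 8.08 in Del(CBS2), with no peak in the other 7 mutant lists. WT replicate 4 was thus the lowest of the lists with a peak.

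Knl1, which encodes a kinetochore scaffold, had 2 sites at the serine tRNA gene n-TSgct7 on chromosome 2, with median summits at 119046585 and 119046796, in the same peak in most lists. Both had folds of 11.6, 17.4 and 19.1 in WT replicates 1 to 3, and the first had 3.12 in WT replicate 4. In Del(CBS1-2) the folds were 17.99 and 16.4, and in Del(CBS1-3) replicate 1 17.6. Del(CBS1) replicate 1 (10.98) and Del(CBS2) (7.67) covered the second summit alone. No other mutant list had a peak over either summit.

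Ctnna3, which encodes an alpha-catenin, had its site at -579 bp, over the serine tRNA gene n-TStga3 (chromosome 10, 63429519). Its folds were 10.4, 15.3, 14.8 and 3.32 in the WT lists. They were 11.9 in Del(CBS1) replicate 1, 15.5 and 13.1 in Del(CBS1-2), 16.6 in Del(CBS1-3) replicate 1 and 7.44 in Del(CBS2). The lists with a peak were the same ones as at Prmt5.

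The remaining tRNA-side sites lay at Ppp6r3, B4gat1, Sacm1l, Mynn, Fmc1, Lta4h, Fbxo31, Tia1, Smarcc2, H4c8, Ndufs7, Psmb3 and Ang, and none of these 13 had a peak in WT replicate 4. Across all 17 sites the median fold was 9.04, 12.5 and 13.8 in WT replicates 1 to 3, and the 3 sites found in WT replicate 4 (Prmt5, the first Knl1 summit and Ctnna3) had 3.12 to 4.76. Del(CBS1) replicate 1 covered 16 of the 17 (median fold 8.45), both Del(CBS1-2) lists all 17 (12.4 and 11.8), Del(CBS1-3) replicate 1 all 17 (14.5) and Del(CBS2) 15 (5.09). Del(CBS1) replicates 2 and 3, Del(CBS1-3) replicate 2 and both lists of Del(CBS1-4) and of Del(CBS1-5) covered none. At Ndufs7, a complex I subunit gene whose sequence is printed above, the folds were 5.47, 9.29 and 11.01 in WT replicates 1 to 3, 7.74 in Del(CBS1) replicate 1, 9.43 and 8.66 in Del(CBS1-2), 9.45 in Del(CBS1-3) replicate 1 and 2.64 in Del(CBS2). Ang, which encodes the ribonuclease angiogenin, had the lowest folds of the 17, 3.92, 3.97 and 5.20 in WT replicates 1 to 3. Within WT, Del(CBS1) and Del(CBS1-3), some replicates thus covered nearly all of these sites and others few or none.

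**Figure D1:**
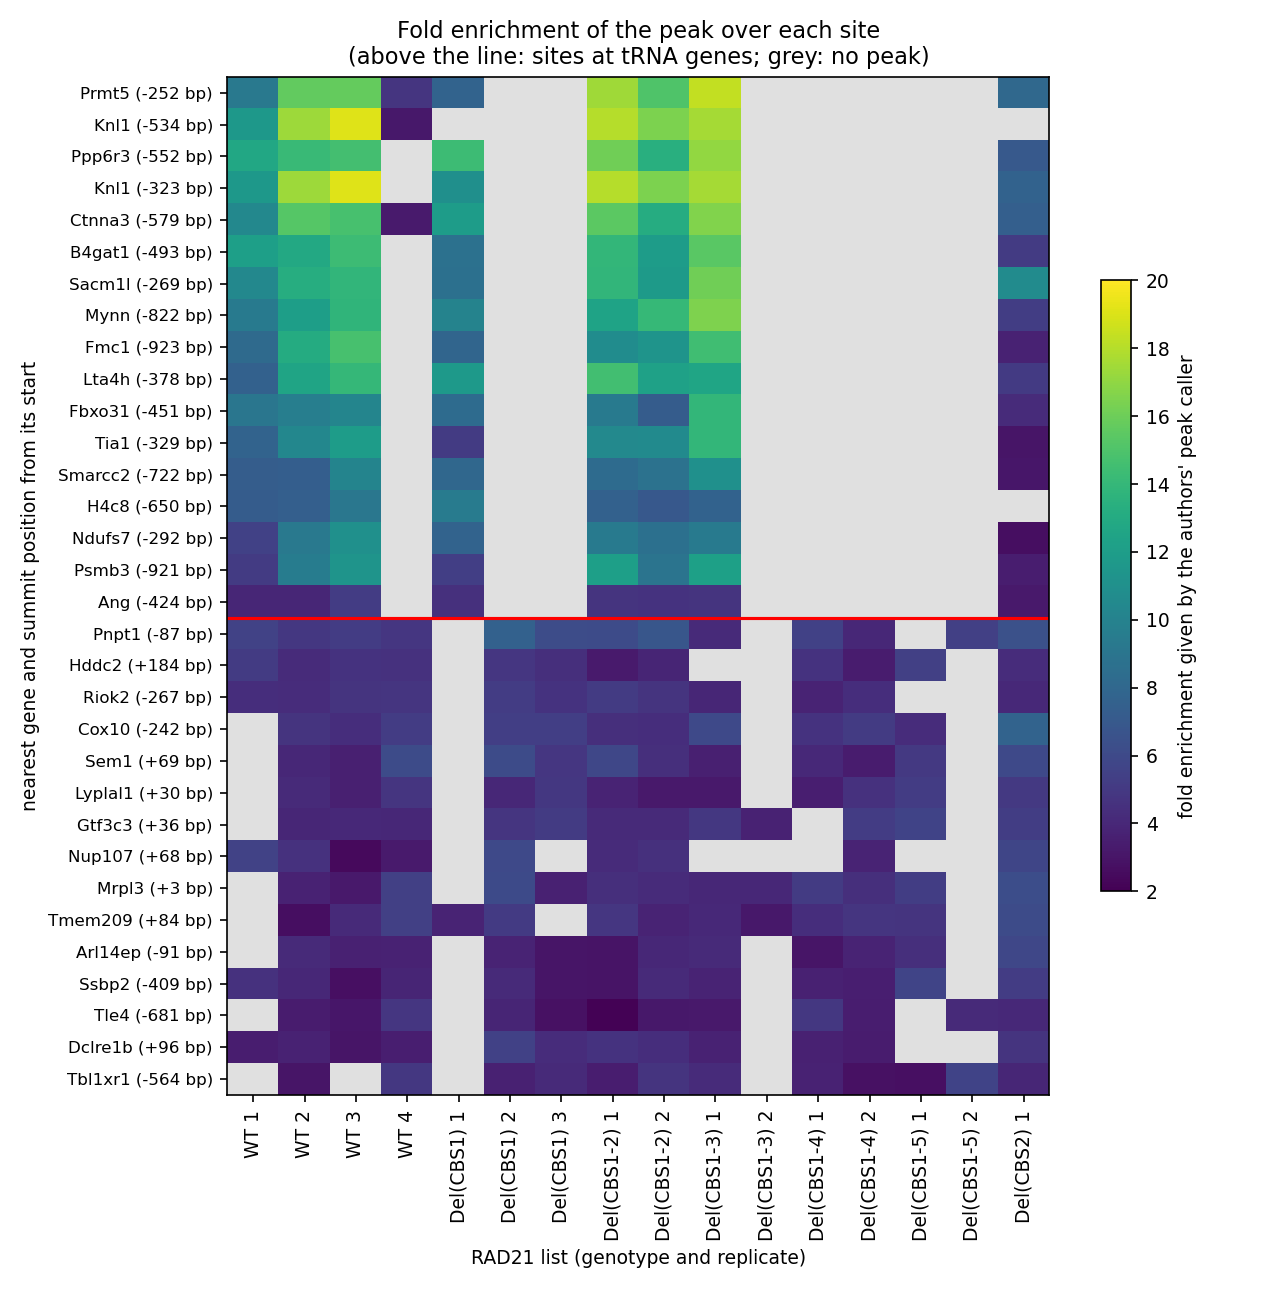
Fold enrichment given by the authors' peak caller (colour) in each of the 16 RAD21 lists (columns) for CTCF-free promoter sites (rows, named by nearest gene and summit position). The 17 rows above the line lie at tRNA genes and are filled in nearly the same lists, while the rows below, which were in all 4 WT lists or in at least 12 of 16 lists, have low folds in most lists; grey means no peak.

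The same lists held the tRNA sites that lie away from promoters. Of those 136 sites, 109, 135, 136 and 2 had a peak in WT replicates 1 to 4. Del(CBS1) lists covered 93, 1 and 1 of them by replicate, Del(CBS1-2) lists 136 and 135, and Del(CBS1-3) lists 136 and 1. Del(CBS1-4) lists covered 2 and 3, Del(CBS1-5) lists 0 and 1, and the Del(CBS2) list 80. Lists that covered few or none of the tRNA-side promoter sites thus also covered few or none of these.

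The other 455 CTCF-free promoter sites were weak. Their median WT fold was 3.41 (interquartile range 3.03 to 3.93), against 4.44 (3.56 to 6.36) at promoter sites with CTCF. Their highest WT fold, 7.20, was at Med16, which encodes a Mediator subunit; that site lies at an annotated small nuclear RNA gene. Of the 455, 356 were in 2 WT lists, 93 in 3 and 6 in all 4. A further 1670 sites that met every other condition were in 1 WT list only. WT replicate 2, the longest WT list, covered 416 of the 455, and WT replicates 1, 3 and 4 covered 55, 298 and 246.

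The 6 found in all 4 WT lists outside tRNA genes were at Pnpt1, Hddc2, Riok2, Nup107, Ssbp2 and Dclre1b. Pnpt1 encodes the mitochondrial RNA-processing enzyme polynucleotide phosphorylase, and its summit (chromosome 11, 29130657) lay 87 bp upstream of the start, within the sequence printed above. Its folds were 5.56, 4.92, 5.17 and 4.83 in WT, 7.62 and 6.20 in Del(CBS1) replicates 2 and 3, and 6.12 and 6.79 in Del(CBS1-2). They were 4.12 in Del(CBS1-3) replicate 1, 5.49 and 4.02 in Del(CBS1-4), 5.41 in Del(CBS1-5) replicate 2 and 6.50 in Del(CBS2). Del(CBS1) replicate 1, Del(CBS1-3) replicate 2 and Del(CBS1-5) replicate 1 had no peak there, and the mutant folds lay on both sides of the WT range. The nearest CTCF peak of any list was 9919 bp away.

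Riok2, which encodes an atypical kinase of ribosome maturation, had folds of 4.37, 4.30, 4.68 and 4.75 in WT at a summit 267 bp upstream. Its mutant folds were 5.21 and 4.64 in Del(CBS1) replicates 2 and 3, 5.12 and 4.67 in Del(CBS1-2), 3.91 in Del(CBS1-3) replicate 1, 3.78 and 4.37 in Del(CBS1-4) and 4.09 in Del(CBS2). WT and mutant folds overlapped, and Del(CBS1) replicate 1, Del(CBS1-3) replicate 2 and both Del(CBS1-5) lists had no peak. Hddc2, a gene of the HD-domain family, had its summit 184 bp downstream of the start. Its folds were 5.16, 4.18, 4.61 and 4.57 in WT and 3.31 to 5.44 in 8 mutant lists, the lowest in Del(CBS1-2) replicate 1 and the highest in Del(CBS1-5) replicate 1. Those ranges also overlapped.

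Nup107 encodes a scaffold protein of the nuclear pore, and its site, 68 bp downstream of the start, was more uneven. Its folds were 5.56, 4.57, 2.47 and 3.30 in WT. Mutant folds were 5.98 in Del(CBS1) replicate 2, 4.201 and 4.49 in Del(CBS1-2), 3.78 in Del(CBS1-4) replicate 2 and 5.78 in Del(CBS2), so 7 mutant lists had no peak. Ssbp2, which encodes a single-stranded DNA-binding cofactor of transcription, had folds of 4.55, 4.02, 2.73 and 3.90 in WT and 2.95 to 5.71 in 9 mutant lists, and its summit lay 409 bp upstream. Dclre1b encodes the telomere nuclease Apollo and shares its promoter region with Ap4b1. Its folds were 3.45, 3.73, 3.02 and 3.50 in WT and 3.35 to 5.48 in 8 mutant lists, and its nearest CTCF peak was 179 bp away, close to the limit of the rule.

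In the mutant RAD21 lists, which the rule did not use, the CTCF-free promoter sites were found less often than promoter sites with CTCF. The CTCF lists of the mutants did enter the rule. A peak covered 2.97% to 66.9% of the 472 sites (median 29.0% over 12 lists), and 23.8% to 90.3% of the 3155 promoter sites with CTCF (median 69.0%). The lowest share of CTCF-free sites was in Del(CBS1-3) replicate 2 and Del(CBS1-5) replicate 2 (14 sites each), and the highest in Del(CBS2). Of the 455 sites outside tRNA genes, 42 (9.23%) had no peak in any mutant list and none had one in all 12. For the 612 CTCF-free sites away from promoters and tRNA genes these counts were 42 (6.86%) and 0. For the 3155 promoter sites with CTCF they were 40 (1.27%) and 527. The share of those 455 that a list covered rose with the number of autosomal peaks in the list, with Pearson's r = 0.907 (permutation p = 6e-05) and Spearman's rho = 0.883 (p = 0.00025) over the 12 mutant lists (adjusted over 2 relations, 0.00012 and 0.0005). Without Del(CBS1-5) replicate 2 and Del(CBS1) replicate 1, the lists farthest from the median length, r was 0.901 (permutation p = 0.00051, n = 10). Such a rise was not particular to these sites. Promoter sites with CTCF were covered at 29.7% and 23.8% in those lists, the shortest, and at 90.3% in Del(CBS2), the longest.

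**Figure D2:**
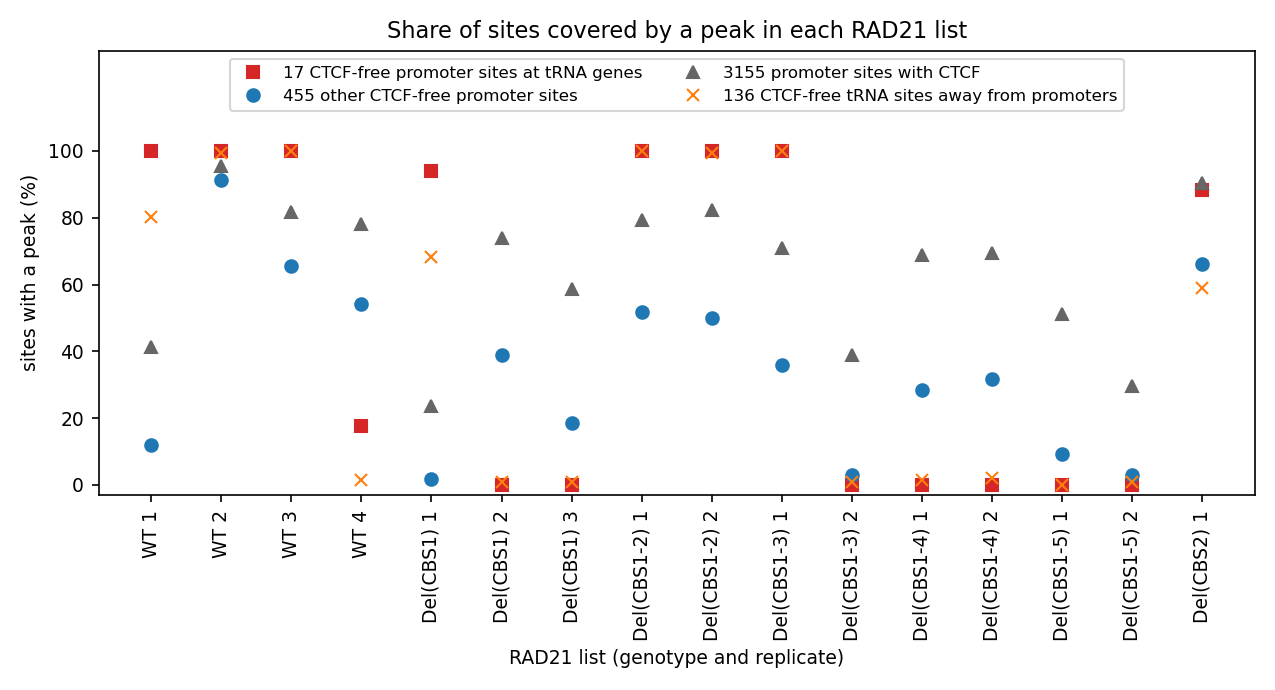
Share of sites covered by a peak (%, vertical axis) in each of the 16 RAD21 lists for 4 classes of site. The 455 other CTCF-free promoter sites (circles) lie below the promoter sites with CTCF (triangles) in every list, and the tRNA sites (squares and crosses) are near 100% or near 0 in most lists.

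Because sites with CTCF were stronger in WT, the comparison was repeated with the promoter sites with CTCF weighted to the same WT fold percentile and the same number of WT lists. These WT values also chose the sites. Before matching, the median over sites of the mean WT percentile, a list without a peak counting as 0, was 9.66 without CTCF and 20.2 with CTCF. How much difference such matching leaves by itself was not tested. The CTCF-free sites were then found in 28.7% of cases, on average over the 12 mutant lists, and the matched sites with CTCF in 40.0%. The difference was -11.3 ± 5.77 percentage points (SD, n = 12 lists), below 0 in 11 of 12 lists (exact sign-flip permutation test, 2-sided, p = 0.000977, adjusted over 4 comparisons 0.00195). The list above 0 was Del(CBS1) replicate 1 (1.69 points), and the largest difference was in Del(CBS1-4) replicate 2 (-17.99 points). Without the sites at tRNA genes the difference was -10.6 ± 4.69 points and below 0 in all 12 lists (exact p = 0.000488, adjusted 0.00195, the smallest p that 12 lists allow). All 12 differences share the same sites and the same WT lists. The p-values here and in the next comparison thus measure the spread between mutant lists, not the choice of sites.

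Against CTCF-free sites away from promoters the difference was smaller and did not pass the test. Promoter sites were found in 28.6% of cases and matched sites away from promoters in 32.6%, a difference of -3.97 ± 6.33 points, below 0 in 8 of 12 lists (exact sign-flip p = 0.0547, adjusted 0.0674). Without tRNA sites it was -4.60 ± 7.75 points (exact p = 0.0674). The matched difference from sites with CTCF changed by -0.63 points per mutated CBS (exact permutation of the 12 lists over genotypes, 2-sided, p = 0.605). With every list cut to its strongest 16281 autosomal peaks, so that list lengths were equal, and the sites chosen anew from these, the change was -2.95 points per mutated CBS (exact permutation p = 0.543). How many sites this cut left was not counted. In WT replicates 1 to 3, the covered tRNA-side sites stood high in the lists, with median fold percentiles of 71.8, 95.3 and 98.0. The other CTCF-free promoter sites stood lower, at 10.8, 22.1 and 13.2. In WT replicate 4 the medians were 5.54 and 13.7. The change at equal list lengths was not computed without the sites at tRNA genes.

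**Figure D3:**
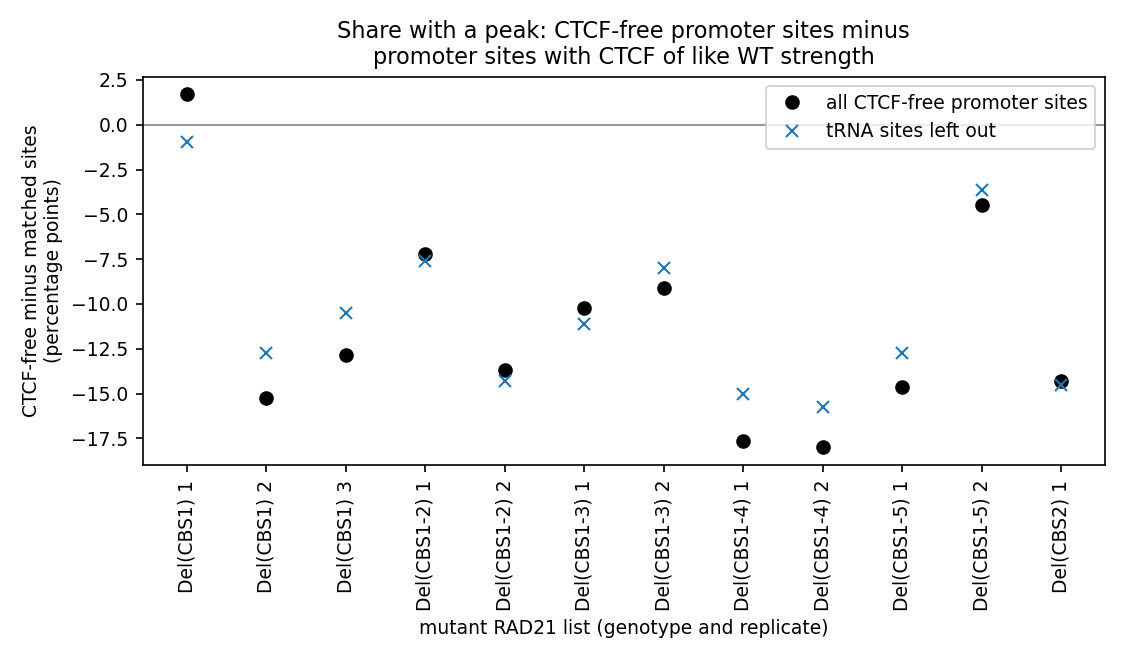
Share of CTCF-free promoter sites with a peak minus that of promoter sites with CTCF of like WT strength (percentage points, vertical axis) in each of the 12 mutant RAD21 lists, for all sites (circles) and without sites at tRNA genes (crosses). All points but 1 lie below 0, and the exception is Del(CBS1) replicate 1 at 1.69.

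The fit of rank changes between genotypes could take in few of the CTCF-free promoter sites, and its contrasts use the WT values that chose them, so its counts are given with nothing read from them. In the fit on the sites found in all 16 RAD21 lists (limma on normal scores of the within-list fold rank, Benjamini-Hochberg adjusted), 0 of the 472 sites were among the 12677 tested, since none was in more than 13 lists. Over all sites tested, 0 (0.0%) were called in Del(CBS1) against WT, 6 (0.0473%) in Del(CBS1-5) against WT and 0 (0.0%) for the slope on the number of mutated CBS. At an unadjusted p under 0.05 there were 658, 1221 and 665. With sites found in at least 12 of the 16 lists, a missing peak taking the lowest rank, 14 of the 472 sites were among 22662 tested, and limma called 0 of the 14 in any of the 3 contrasts. The shares called over all sites in that fit were 0.00441%, 0.00883% and 0.0%. At an unadjusted p under 0.05 the count among the 14 was 0, 1 and 0. The 1 was Tbl1xr1, which encodes a corepressor subunit.

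The other 13 sites of that fit were at Pnpt1, Mrpl3, Ssbp2, Cox10, Gtf3c3, Sem1, Lyplal1, Tmem209, Arl14ep, Hddc2, Riok2, Dclre1b and Tle4. Mrpl3, a protein of the large mitochondrial ribosomal subunit, had its summit 3 bp downstream of the start (chromosome 9, 105053271), no peak in WT replicate 1, and folds of 3.75, 3.20 and 5.42 in WT replicates 2 to 4. In 10 mutant lists its folds were 3.67 to 6.28, without a peak in Del(CBS1) replicate 1 and Del(CBS1-5) replicate 2. Cox10, an assembly enzyme of cytochrome oxidase, had folds of 4.74, 4.38 and 5.21 in WT replicates 2 to 4 and 4.29 to 7.72 in 9 mutant lists at a summit 242 bp upstream. Gtf3c3, itself a subunit of TFIIIC, had 3.95, 4.07 and 4.03 in WT replicates 2 to 4 and 3.70 to 5.65 in 9 mutant lists, 36 bp downstream of the start. At Mrpl3, Cox10 and Gtf3c3 the mutant folds covered or overlapped the WT range.

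The summits outside tRNA genes lay mostly downstream of the gene start. Of the 455 sites, 321 (70.5%) were downstream, with a median of 147 bp (interquartile range -35 to 394), against 46.3% and a median of -26 bp at promoter sites with CTCF. Counting the tRNA sites, 151 of 472 (32.0%) were upstream. Sites were not independent in this, since 65 neighbouring pairs lay within 1 kb of each other and the 472 sites had 409 distinct nearest starts. The rule used the distance to the start but not its side. It did leave out sites near CTCF, and promoter sites with CTCF were densest just upstream (12.5% from -200 to -100 bp and 15.2% from -100 to 0 bp). Whether this moved the share downstream was not tested. In the mutant lists' own summits, 50.0% to 73.8% of the covered sites outside tRNA genes were downstream, from 14 sites in Del(CBS1-5) replicate 2 to 42 in Del(CBS1-5) replicate 1, and 24.0% to 43.4% of the covered promoter sites with CTCF. In each of the 12 lists the first share was the higher, but the same sites entered every list. A mutant peak also counted only if it spanned the median WT summit. At the sites outside tRNA genes the mutant summits lay a median of 53 to 80.5 bp from that WT summit, by list. The mutant lists are therefore no separate test of the side.

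**Figure D4:**
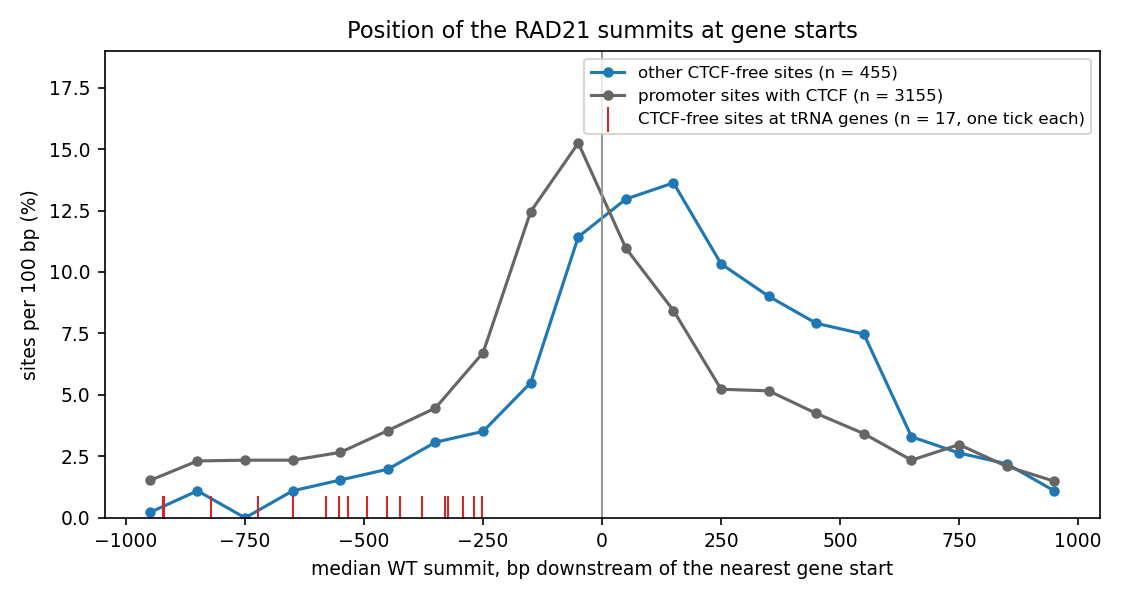
Distance of the median WT summit from the nearest gene start (bp, positive is downstream) for 455 CTCF-free promoter sites outside tRNA genes and 3155 promoter sites with CTCF, as % of sites per 100 bp; ticks mark the 17 sites at tRNA genes. The CTCF-free sites outside tRNA genes lie mainly downstream of the start, with a median of 147 bp, and all ticks lie upstream.

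Most of these promoters had a CTCF peak within 10 kb. The median distance to the nearest peak of any CTCF list was 1924 bp, 42.2% of the 472 sites had one within 1 kb and 21.4% had none within 10 kb. The farthest, 522651 bp, was at Pabpc4l, a gene of the poly(A)-binding protein family. Just inside the limit were Mylip (155 bp) and Scrn3 (156 bp), and just outside Mdfic (149 bp) and Mrtfa (147 bp). At the limit on the gene start, Rasa1 (972 bp) and Zfp467 (957 bp) were inside. Polr3e, which encodes a subunit of RNA polymerase III, was outside at 1008 bp with a mean WT percentile of 46.0, as was 1 site at Eed, 1021 bp from the start, with 11.2.

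The promoters with CTCF-free RAD21 were rich in CpG. Among their 409 gene starts, 82.2% had a CpG observed-to-expected ratio above 0.6 in the 300 bp window of the RefSeq promoter sequences, against 48.9% of all 20084 starts and 73.5% of the 2686 starts with RAD21 and CTCF. Median GC content was 60.7%, 57.0% and 62.0% in the same order. A GC box was in 67.7% of the starts without CTCF, 47.0% of all starts and 64.7% of the starts with CTCF. The ETS motif was in 19.8%, 11.9% and 17.1%, the NRF1 motif in 13.7%, 6.55% and 9.23%, and the YY1 motif in 3.18%, 1.19% and 1.68%. The CCAAT box was in 38.6%, 38.1% and 35.7%, the CRE in 3.67%, 2.3% and 3.02%, and the E-box in 10.8%, 7.89% and 8.75%. TATA was rarer than among all starts, at 6.36%, 12.7% and 6.66%. The CTCF core was in 1.71%, 4.22% and 11.8%, and the B box in 0.244%, 0.144% and 0.186%. Beside promoters with RAD21 and CTCF, the shares of the GC box, the CCAAT box and TATA were close and those of NRF1 and YY1 higher, with no test, and the CTCF core bears on the rule itself. Only 111 of the 472 summits lay inside the window, so the motifs describe the promoter and not the summit.

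By gene list, the share with a site was highest among mitosis, mitochondrial ribosome and splicing genes. A site lay within 1 kb of a start of 450 of the 16456 protein-coding genes (2.73%), and the lists are set beside that share with no test. Among 27 mitosis and spindle genes 5 (18.5%) had one: Knl1, which has the tRNA-side sites, the checkpoint gene Bub3, the cyclin gene Ccnb2, the kinase gene Aurka and the condensin gene Smc2. Bub3 had folds of 3.04, 3.81 and 3.09 in WT replicates 2 to 4. For RAD21 sites with CTCF the share of the mitosis list was also 18.5%, against 17.003% of all genes.

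Mitochondrial genes were the next group. Of 69 mitochondrial ribosomal protein genes 8 (11.6%) had a site (Mrpl1, Mrpl3, Mrpl18, Mrpl30, Mrpl37, Mrpl42, Mrps7 and Mrps36), whereas 1 of 61 cytosolic ribosomal protein genes did (1.64%, Rps7, with folds of 3.47 and 3.09 in WT replicates 2 and 3). Of 80 respiratory chain genes 7 (8.75%) had one: Ndufs7, whose site is at a tRNA gene, Cox10, Ndufb4, Ndufb2, Ndufs3, Ndufaf5 and Ndufaf7. For RAD21 with CTCF the shares of these 3 lists were 24.6%, 21.3% and 28.7%.

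Splicing factors had 6 of 63 (9.52%), among them Hnrnpa2b1 and Prpf4, each at a start shared with a neighbour (Cbx3 and Cdc26). Proteasome genes had 3 of 39, with Psmb3 at a tRNA gene and Psme4 and Psmg4 elsewhere. Aminoacyl-tRNA synthetase genes had 2 of 25 (Dars and Rars2), and DNA replication genes 2 of 33 (Orc1 and Orc3). Orc1 and Prpf38a share the same site, with folds of 4.62, 4.01 and 3.36 in WT replicates 1, 2 and 4, and so do Rars2 and Orc3, with 3.32 and 2.93 in WT replicates 2 and 3. Replication-dependent histones had 3 of 59 (H4c8 at a tRNA gene, H1f5 and H2bc6), and chaperones 3 of 61 (Dnajb6, Dnajb9 and Tcp1). Translation factors (Eif4a1, 1 of 53), Mediator (Med16, 1 of 26), RNA polymerase II and general factors (Gtf2a1, 1 of 40) and Polycomb and Trithorax genes (Eed, 1 of 28) had 1 each. From splicing to Polycomb, in this order, the shares for RAD21 with CTCF were 25.4%, 23.1%, 28.0%, 30.3%, 11.9%, 19.7%, 32.1%, 42.3%, 25.0% and 10.7%. Among all genes that share was 17.003%.

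Genes that mark the tissues of a trunk were nearly free of such sites. The lists of Hox genes (24), limb and lateral plate (15), neural tube (27), blood and endothelium (15), somite and muscle (15) and endoderm and liver genes (11) had 0, as did immediate early genes (17) and cohesin and its regulators (10). The heart list had Mef2c (1 of 15), which encodes a transcription factor, with folds of 3.11, 3.76 and 4.31 in WT replicates 2 to 4 and no mutant peak at the stronger of its 2 sites. At a share of 2.73%, lists of this size hold fewer than 1 such gene on average, so these counts of 0 show no difference. RAD21 with CTCF lay at 3 of the 24 Hox genes and at 2 of the 27 neural tube genes.

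**Figure D5:**
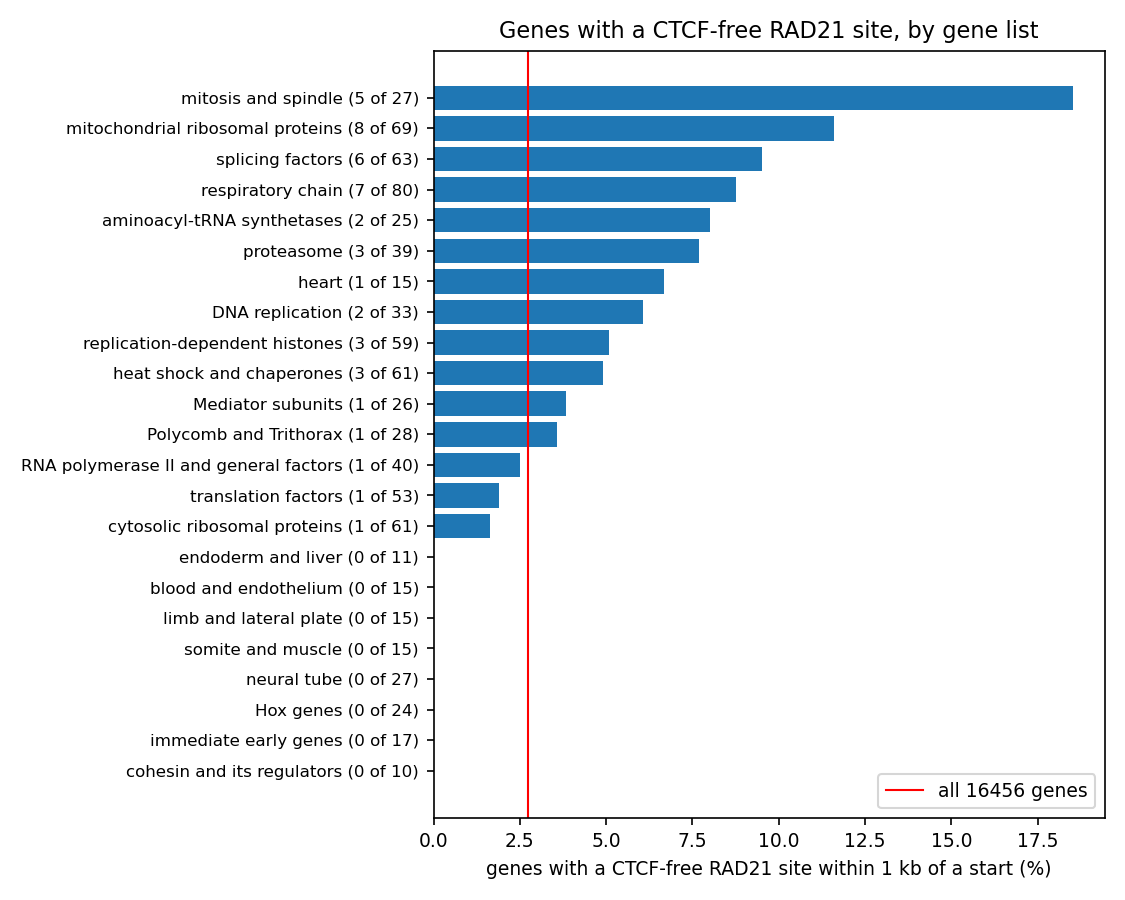
Share of the genes of each list with a CTCF-free RAD21 site within 1 kb of a start (%, horizontal axis), with the counts beside the list names; the line is the share over all 16456 genes, 2.73%. Mitosis and spindle genes stand highest with 5 of 27, and the 8 lists at 0 include the tissue lists other than heart.

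Near the mutated Hoxd cluster, 2 CTCF-free promoter sites lay within 1 Mb, both at Mtx2, a gene of mitochondrial protein import that flanks the cluster. Their summits, at 74826095 and 74826321 on chromosome 2, lay 283 and 509 bp downstream of its start and 63115 and 63341 bp beyond the start of Hoxd1. Both had folds of 4.74 in WT replicate 2 and 3.87 in WT replicate 4. The first was covered in Del(CBS1-2) replicate 1 (3.69), Del(CBS1-4) replicate 1 (3.16) and Del(CBS2) (5.81). The second was covered in 7 mutant lists with folds of 2.57 to 5.26, among them Del(CBS1-5) replicate 1 at 4.10 and not replicate 2. Lists with a peak came from 3 alleles at the first site, and the nearest CTCF peaks were 213 and 439 bp away.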

How the data were processed

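RAD21 and CTCF were mapped by ChIPmentation, and the authors deposited 1 mm10 peak list per library. The submitters' processing notes list MACS2 2.1.1.20160309, Bowtie2 2.3.5, Picard 2.19.0, bedtools 2.27.1, cutadapt 1.16 and SAMtools 1.9, without options. In the deposited lists the fold enrichment of a summit over local background is a ratio, and -log10 p, -log10 q and the display score are the caller's own. The lists hold no counts, so depth is unknown and precision rests on the number of lists.

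The sites, gene lists and rule for naming genes were chosen with earlier results of these data known. A site was covered when a peak of the list spanned its median summit, and the covering peak with the nearest summit gave its fold. Gene starts, upstream sequences and tRNA genes came from RefSeq (GRCm38.p6): 16456 of 20661 autosomal protein-coding genes had a start, and chromosome 18 had no starts. Its 73 CTCF-free sites could thus not become promoter sites. Those over 1 kb from either end of a protein-coding gene counted among the 748 sites away from promoters. Exons, introns and UTRs were not analysed here. The matched comparison used 10 strata of WT percentile and the number of WT lists. The named sites were those in all 4 WT lists, up to 3 per gene list, those within 1 Mb of Hoxd, those called and those nearest each limit; Ang, Gtf3c3, Med16, Pabpc4l, Tbl1xr1 and the other 13 sites of the limma fit and the remaining tRNA-side sites were named after their values were seen. The limma fits (version 3.58.1, R 4.3.3) took normal scores of the fold ranks, with 1 coefficient per genotype; Del(CBS2), with 1 list, was assumed to vary like the others. Methods were tested on simulated data. The rest was done in Python 3.11.15 with scipy 1.17.1, pandas 2.3.3, matplotlib 3.10.9 and numpy 2.4.6. Alternatives varied the linking distance, the number of WT lists, the distances to CTCF and to the start, the q limit, the matching, the ranking, replicate blocks and leaving out each list; those on tRNA sites and on gene span ends were chosen after seeing the data.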

Additional observations from a re-analysis of the deposited data

How the results depend on the processing

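The count of CTCF-free promoter sites depended on the WT lists. It was 116 with 3 of 4 WT lists required and 9 with all 4, 958 when CTCF peaks of the 3 WT lists only were used, 765 when CTCF was placed by summit and 17 with a -log10 q of at least 10. Leaving out 1 WT list gave 155 (without WT replicate 2, the longest) to 447, with 270 without WT replicate 3. The other 8 settings stayed within 1.5 times of 472. The matched detection difference kept its sign and passed the test in 26 settings, from -8.62 to -32.7 points with exact p from 0.000488 to 0.0132. The value moved by over 1.5 times without matching (-32.7), without WT replicate 2 (-19.4) and without WT replicate 4 (-17.3). It also did with each list cut to its strongest 16281 autosomal peaks (-24.9), with all 4 WT lists (-26.7) and with the q limit (-29.5). The last 2 settings rest on few sites: 9 with all 4 WT lists, 3 of them at tRNA genes, and 17 with the q limit. Even Ang, whose folds were the lowest among the tRNA-side sites, had -log10 q of 25.2 and 56.9 in WT replicates 2 and 3. Outside tRNA genes, Med16 had 14.4 and 25.8 there and Pnpt1 9.09 and 9.22. How many sites at tRNA genes the q limit left was not counted, nor how many sites the cut to 16281 peaks left. Neither setting was run without the sites at tRNA genes. With the replicate block, signs flipped together by replicate number, the matched difference was -11.3 with an exact p = 0.25, the smallest p that 8 sign patterns allow. Residuals of same-numbered lists had r from -0.19 to 0.279 over 31 pairs, 1 above 0.1. They came from sites in all 16 lists, which hold none of the CTCF-free promoter sites. Whether replicate numbers form blocks at the CTCF-free promoter sites was therefore not tested. The trend, -0.63 points per mutated CBS, did not pass the test in any of 16 settings (p from 0.182 to 0.822), and with 1 list left out it ranged from -1.65 (without Del(CBS1-5) replicate 2) to 0.29 (without Del(CBS1) replicate 1). It was -2.95 with equal list lengths and -2.04 without matching. The upstream share was 66.7% (6 of 9) with all 4 WT lists. Of the rank fits only the 2 on sites in at least 12 of 16 lists held any CTCF-free promoter site (14, with 0 called), so the other fits say nothing of these sites; over all sites the Del(CBS1-5) calls ranged from 0 to 155, the highest without Del(CBS1-5) replicate 1. Weak sites lie near the calling threshold of each list, and depth could not be taken into account.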
